A study of Mus musculus with 6 samples.

Results

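Transcripts of haematopoietic cytokine receptor subunits were measured in LSK cells of Tet1 KO and WT mice, and none of their probe sets passed the test corrected for multiple testing. A list of 10 subunit genes was given by name: Il3ra, Csf2ra, Csf2rb, Il6ra, Il6st, Il1r1, Il18r1, Il2rg, Il4ra and Il10rb. Their probe sets were those whose platform annotation gave a single gene symbol equal to 1 of these names. That gave 19 probe sets for 9 of the 10 genes, out of 45037 probe sets in all, and Il2rg was not analysed here. A further probe set that is annotated to both Csf2rb2 and Csf2rb was left out by the same rule.

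The 2 groups were Tet1 KO and WT, with 3 samples each and 1 Affymetrix array per sample. All mice were 6 months old, and the labels give the strain as CD57BL/6. LSK cells, flow-sorted from bone marrow, lack mature lineage markers, carry Sca-1 and Kit, and comprise the haematopoietic stem cells and the first multipotent progenitors. The labels describe neither the Tet1 allele nor whether each sample came from a mouse of its own, so the p-values reflect only how these samples vary, which may be technical.

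Cytokine receptors of this kind have no enzyme activity of their own: a ligand brings the subunits together, and attached kinases or adaptors carry the signal. Most pair a chain specific for the ligand with a chain that several receptors share. Csf2rb serves the receptors for interleukin 3, interleukin 5 and GM-CSF, Il6st (gp130) those for interleukin 6 and its relatives, and Il10rb those for interleukin 10 and its relatives. Il1r1 and Il18r1 belong to another family, which signals through Myd88 and Irak kinases. Signals of these receptors act on the survival, division and lineage choice of early blood progenitors.

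Values are log2 probe set intensities as deposited, and a difference is the Tet1 KO mean minus the WT mean on that scale. Levels of different probe sets are not comparable, since each probe set has its own response. Tet1 itself, an enzyme that oxidises methylated cytosine in DNA, had all Tet1 KO values below all WT values at each of its 4 probe sets, with differences from -1.68 to -0.93. None of the 4 passed adjustment in limma (adjusted p = 0.686 at each, unadjusted p from 0.0017 to 0.0103). Failing that test thus does not show a transcript to be unchanged. Where the deletion lies relative to the Tet1 probe sets is unknown here. Array medians lay within 0.0694 of each other. Tet1 KO replicate 2 stood apart, with correlations of 0.937 to 0.944 to the other arrays, whose correlations among themselves were 0.970 to 0.984. Xist, the RNA that coats the inactive X chromosome, read 3.82 on Tet1 KO replicate 3 and 4.58 on WT replicate 3 at its brightest probe set, and at least 11.78 on each of the other arrays. The 7 measured of 9 listed LSK markers, Kit, Cd34, Cd48, Slamf1, Procr, Flt3 and Meis1, all read above the bacterial control level of 4.335, which served as a guide to background and is the mean over the 6 arrays of the brightest of 27 probe sets for bacterial transcripts. Of the 5 T cell markers, Cd3e, Cd3g and Cd5 read below that level in both groups and Cd4 and Cd8a above it. Cd8a read 5.82 ± 0.32 in Tet1 KO and 5.28 ± 0.16 in WT (SD, n = 3 each), without overlap (difference 0.53, limma adjusted p = 0.686). Of the 4 measured B cell markers, Ms4a1 read below the level, and Cd79a, Cd79b and Ighm above it. In Tet1 KO 2 of them were higher and 2 lower. Ighm read 10.06 ± 1.18 in Tet1 KO and 9.40 ± 1.17 in WT, and Cd79b 7.31 ± 0.47 and 7.73 ± 0.16 (SD, n = 3 each). The 6 measured markers of granulocytes and monocytes averaged above the level, 4 higher and 2 lower in Tet1 KO. Lyz2 read 10.28 ± 0.06 in Tet1 KO and 10.26 ± 0.07 in WT (SD, n = 3 each). Differences were 0.48 for S100a8, 0.46 for Csf1r, -0.40 for S100a9 and -0.43 for Itgam. Of the measured erythroid markers 1 was higher and 3 lower, and of the stroma markers 3 and 2. All 4 measured mast cell and basophil markers were higher, but only 2 of them averaged above the level. Without Tet1 KO replicate 2 the differences were 0.009 for Mcpt8, 0.66 for Cpa3, -0.19 for Fcer1a and -0.11 for Ms4a2. The 4 measured markers of natural killer and innate lymphoid cells were also all higher in the full comparison, and averaged below the level. None of these markers passed adjustment in limma. The part of such cells in the receptor values was not tested.

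Of the 19 receptor probe sets, 13 were lower and 6 higher in Tet1 KO, and 18 read above the bacterial control level. Lower were 68.4% of the 19, against 42.9% of all probe sets. Of the 18 it was 72.2%, against 54.4% of all probe sets above that level. Probe sets of the same gene are not independent, and Il6st gave 4 of the 13 and Il4ra 3. With only the brightest probe set of each gene, 6 of 9 were lower (66.7%), against 43.5% of all genes. The median difference of the 19 was -0.27, against 0.06 over all probe sets and -0.04 over the 29178 probe sets above the bacterial control level. In limma with Benjamini-Hochberg adjustment over all probe sets, 0 of the 19 passed 0.05, where the share over all probe sets was 0%, and the lowest adjusted p among the 19 was 0.686. At an unadjusted limma p under 0.05 there were 2 of the 19, against 6.81% of all probe sets. The 2 were 1 probe set each of Il18r1 and Il4ra, both lower in Tet1 KO. The values of the groups did not overlap for 2 of the 19, against 16.2% of all probe sets. These were Il18r1 and the dimmer probe set of Il6ra, both lower in Tet1 KO, a direction that held for 6.29% of all probe sets, while 9.96% were higher without overlap. A count of 2 in 19 is 10.5%, above the 6.81% for the unadjusted p and below the 16.2% for groups without overlap. It is above the 6.29% for lower without overlap. With so few genes, neither these counts nor the share that was lower sets the receptor genes apart. In bulk samples like these, fewer cells of a type and less RNA per cell cannot be told apart.

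**Figure D1:**
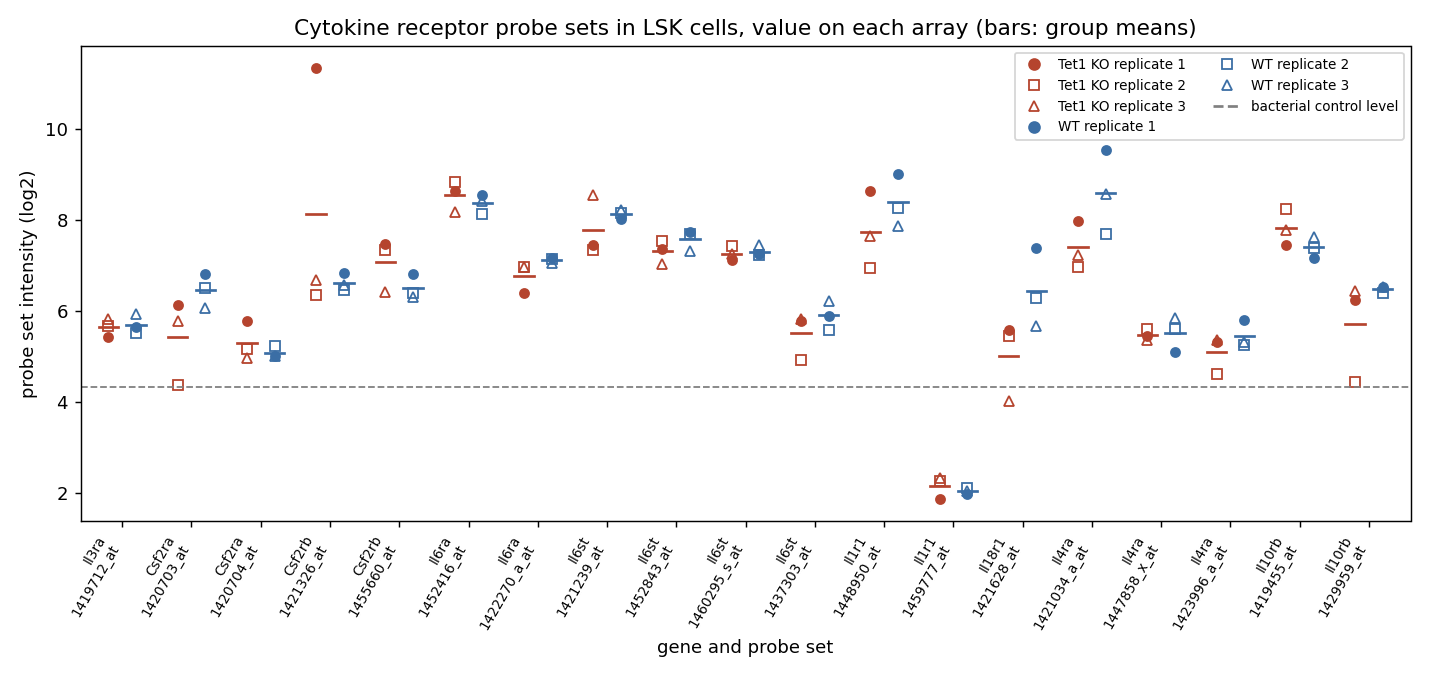
Log2 intensity (y axis) of each of the 19 receptor probe sets (x axis) on each array, with Tet1 KO arrays left of WT arrays, group means as bars and the bacterial control level of 4.335 as a dashed line. The Csf2rb probe set 1421326_at has 1 Tet1 KO array at 11.34, and the Il18r1 probe set has all Tet1 KO arrays below all WT arrays.

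The interleukin 1 family receptors held the largest difference without overlap. Il18r1, the chain that binds interleukin 18, has 1 probe set, 1421628_at. It read 5.57, 5.44 and 4.01 on the Tet1 KO arrays, against 7.38, 6.29 and 5.66 on the WT arrays. Every Tet1 KO value lay below every WT value, although the highest Tet1 KO array and the lowest WT array were close to each other. The difference was -1.43 (SE 0.56, 95% interval -2.78 to -0.09), or 0.370 times the WT level. Its unadjusted limma p was 0.0401 and its adjusted p 0.686, and the adjusted p lay between 0.486 and 0.901 in all other settings tried. In each group the lowest Il18r1 value was on the array with low Xist, and for Tet1 KO it lay below the bacterial control level. Tet1 KO minus WT was -1.65 between these 2 arrays and -1.33 between the means of the other arrays. The difference was -1.65 without Tet1 KO replicate 2, against -0.94 when Tet1 KO replicate 3 was left out and -0.97 when WT replicate 1 was. The unadjusted limma p was 0.112 and 0.119 in these last fits.

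Il1r1, the signalling receptor for interleukin 1, read 8.64, 6.93 and 7.63 on the Tet1 KO arrays and 9.01, 8.26 and 7.87 on the WT arrays at its bright probe set, 1448950_at. The groups overlapped, with Tet1 KO replicate 1 above all but the highest WT array. The difference of -0.64 (SE 0.48, limma adjusted p = 0.696) became -0.24 once Tet1 KO replicate 2 was left out and -1.10 once Tet1 KO replicate 1 was. Its other probe set, 1459777_at, read between 1.86 and 2.33 on all arrays, below the bacterial control level in both groups.

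By RefSeq gene order (assembly GRCm38.p6), Il1r2, Il1r1, Il1rl2, Il1rl1, Il18r1 and Il18rap follow each other on chromosome 1, and the differences of these neighbours had both signs. Il1rl2, a receptor of interleukin 36, read 5.74, 6.98 and 5.42 on the Tet1 KO arrays and 4.47, 4.67 and 5.36 on the WT arrays. Its Tet1 KO values thus all lay above its WT values, by 1.21 on average (SE 0.44, limma adjusted p = 0.686), opposite in sign to Il18r1, and by 0.75 without Tet1 KO replicate 2. Il18rap, the accessory chain that Il18r1 needs to signal, gave -0.17 (SE 0.25), and Il1r2, a decoy receptor that read below the bacterial control level, gave -0.26 (SE 0.21). Il1rl1 was not analysed here. None of these passed adjustment in limma, and the difference between neighbours was not tested.

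Promoter windows are shown for Il18r1 and Il4ra, the genes of the lowest unadjusted p-values, and for Il6st, whose 4 differences all had intervals that included 0. Tet1 acts on methylated cytosine, which in mammals sits mostly in CpG, so each CpG is in capitals. The windows are from RefSeq (GRCm38.p6, plus strand, 250 bases before to 50 after the start of the gene's most upstream listed transcript). They lie at chr1:40465302-40465601 for Il18r1, chr7:125552021-125552320 for Il4ra and chr13:112463820-112464119 for Il6st.

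Il18r1: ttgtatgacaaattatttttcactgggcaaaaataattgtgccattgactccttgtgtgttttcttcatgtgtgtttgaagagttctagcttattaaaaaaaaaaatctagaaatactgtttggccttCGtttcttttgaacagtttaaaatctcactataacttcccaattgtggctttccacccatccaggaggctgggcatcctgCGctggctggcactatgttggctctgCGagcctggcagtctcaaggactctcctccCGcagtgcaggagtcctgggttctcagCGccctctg

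Il4ra: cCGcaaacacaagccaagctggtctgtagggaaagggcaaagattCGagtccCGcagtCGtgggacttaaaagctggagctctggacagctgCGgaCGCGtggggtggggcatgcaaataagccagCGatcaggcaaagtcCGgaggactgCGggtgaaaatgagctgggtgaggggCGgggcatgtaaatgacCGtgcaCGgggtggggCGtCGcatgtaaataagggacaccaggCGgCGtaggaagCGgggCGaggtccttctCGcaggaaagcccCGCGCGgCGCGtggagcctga

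Il6st: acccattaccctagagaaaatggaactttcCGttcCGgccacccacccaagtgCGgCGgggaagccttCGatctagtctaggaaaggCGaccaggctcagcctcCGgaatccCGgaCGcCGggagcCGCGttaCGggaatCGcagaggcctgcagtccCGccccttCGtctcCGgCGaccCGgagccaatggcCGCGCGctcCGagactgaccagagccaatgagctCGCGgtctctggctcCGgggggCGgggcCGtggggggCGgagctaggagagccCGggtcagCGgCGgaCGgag

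The Il18r1 window held 5 CpG, and 38.3% of the 27025 windows of all genes held fewer. The Il4ra window held 25, more than 81.6% of all windows, and the Il6st window 33, more than 91.7%. Of the receptor genes, 7 had a window in the table. Il1r1 held 5 CpG like its neighbour, while Csf2ra held 23, Il6ra 25 and Il3ra 35. The 2 genes with the fewest CpG are thus both of the interleukin 1 receptor group, but 43.6% of all windows held 5 or fewer. The other receptor genes lie above the median of 7 over all windows. The letters TTCNNNGAA, a palindrome to which STAT factors bind, were in 0 of the 7 windows and in 8.42% of all windows. The letters GAGGAA, read on either strand and part of sites of the myeloid and lymphoid factor PU.1, were in the windows of Csf2ra and Il6ra and in 28.3% of all windows. Such a match describes the letters and no bound factor, and DNA methylation was not measured in these samples.

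Among receptors built around the common gamma chain, Il4ra, which binds interleukin 4, had 3 probe sets that were all lower in Tet1 KO by unequal amounts. The brightest, 1421034_a_at, read 7.98, 6.97 and 7.23 on the Tet1 KO arrays, against 9.52, 7.69 and 8.56 on the WT arrays. Tet1 KO replicate 1 lay above WT replicate 2, so the groups overlapped, and the WT arrays themselves were spread (SD 0.92). The difference was -1.20 (SE 0.49, 95% interval -2.37 to -0.03), or 0.436 times the WT level, with an unadjusted limma p of 0.0463 and an adjusted p of 0.686. Across the other settings that adjusted p ran between 0.486 and 0.901. Leaving out WT replicate 1 gave a difference of -0.73, and leaving out WT replicate 2 gave -1.65. The other Il4ra probe sets gave -0.36 (SE 0.26) and -0.04 (SE 0.22), and the mean of the 3 gave -0.53.

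Of the shared beta chain receptors, Csf2rb showed the value farthest from the rest. At probe set 1421326_at it read 11.34, 6.34 and 6.67 on the Tet1 KO arrays and 6.83, 6.45 and 6.56 on the WT arrays. Tet1 KO replicate 1 was 4.515 above the next array, and the other Tet1 KO arrays lay within or next to the WT range. The group difference of 1.51 (SE 1.26, limma adjusted p = 0.708) thus rested on that array, and was -0.11 without it. On Tet1 KO replicate 1, 42 of the 45037 probe sets were more than 3 above every other array, against 56 on Tet1 KO replicate 2, 0 on Tet1 KO replicate 3 and 3 to 10 on the WT arrays. A gap of more than 4 held for 11 probe sets on Tet1 KO replicate 1. The other Csf2rb probe set, 1455660_at, did not show this jump. It read 7.47, 7.33 and 6.42 on the Tet1 KO arrays and 6.81, 6.39 and 6.29 on the WT arrays, a difference of 0.57 (SE 0.31, limma adjusted p = 0.686). There 2 of the 3 Tet1 KO arrays were above all WT arrays. Csf2rb2, the neighbouring and closely related mouse chain for interleukin 3, read 5.70, 6.50 and 4.87 on the Tet1 KO arrays and 6.11, 5.22 and 5.77 on the WT arrays, a difference of -0.01 (SE 0.44). As these genes are near copies, some probes may take up transcripts of either gene.

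Csf2ra, the chain specific for GM-CSF, gave opposite signs at its 2 probe sets. At 1420703_at it read 6.13, 4.37 and 5.78 on the Tet1 KO arrays and 6.81, 6.50 and 6.06 on the WT arrays, a difference of -1.03 (SE 0.47, limma adjusted p = 0.686). Tet1 KO replicate 2 was 1.411 below the next array, and the difference was -0.50 without it. Its value of 4.37 lay below the brightest bacterial control of that array, 4.875, against 4.207 to 4.366 for the brightest on the other arrays. The second probe set, 1420704_at, read 5.77, 5.15 and 4.97 on the Tet1 KO arrays and 5.01, 5.22 and 5.003 on the WT arrays, a difference of 0.22 (SE 0.23). Il3ra, the chain specific for interleukin 3, differed least of the genes with a single probe set. It read 5.41, 5.67 and 5.82 on the Tet1 KO arrays and 5.65, 5.51 and 5.92 on the WT arrays. The groups were intermixed, and the difference of -0.06 had a 95% interval of -0.50 to 0.39.

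In the gp130 system, all 4 probe sets of Il6st, the shared signal-transducing chain, had a negative difference, between -0.39 and -0.04, and each interval included 0. The brightest, 1421239_at, read 7.44, 7.33 and 8.55 on the Tet1 KO arrays and 8.02, 8.14 and 8.21 on the WT arrays. Tet1 KO replicate 3 was the highest array of all and the other Tet1 KO arrays were the lowest, so the difference of -0.35 (SE 0.33) averaged over a split within the Tet1 KO group. Leaving out Tet1 KO replicate 3 gave -0.74, with an unadjusted limma p of 0.00464 and an adjusted p of 0.551. The 3 other Il6st probe sets did not show that split. Their Tet1 KO replicate 3 values were 7.04, 7.24 and 5.82, against WT values of 7.31 to 7.74 at 1452843_at, 7.22 to 7.44 at 1460295_s_at and 5.58 to 6.22 at 1437303_at.

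Il6ra, the chain that binds interleukin 6, again gave opposite signs. The brighter probe set, 1452416_at, read 8.62, 8.83 and 8.17 on the Tet1 KO arrays and 8.54, 8.13 and 8.41 on the WT arrays, a difference of 0.18 (SE 0.22). The other, 1422270_a_at, read 6.39, 6.97 and 6.95 on the Tet1 KO arrays and 7.15, 7.13 and 7.04 on the WT arrays. All its Tet1 KO values lay below the WT values, 2 of them only just, and the difference of -0.34 (SE 0.20) had an unadjusted limma p of 0.134. Without Tet1 KO replicate 1 it was -0.15.

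Il10rb, a class II chain shared by the receptors of interleukin 10, interleukin 22 and lambda interferons, likewise split by probe set. At 1419455_at it read 7.45, 8.23 and 7.78 on the Tet1 KO arrays and 7.17, 7.38 and 7.62 on the WT arrays, a difference of 0.43 (SE 0.24, limma adjusted p = 0.686). At 1429959_at it read 6.25, 4.43 and 6.43 on the Tet1 KO arrays and 6.52, 6.39 and 6.53 on the WT arrays, a difference of -0.78 (SE 0.51). Tet1 KO replicate 2 was thus the highest array at 1 Il10rb probe set and, by 1.814, the lowest at the other. The low value, 4.43, lay near the bacterial control level of 4.335 and below that array's own brightest bacterial control, 4.875. Without Tet1 KO replicate 2 the differences were 0.22 and -0.14.

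**Figure D2:**
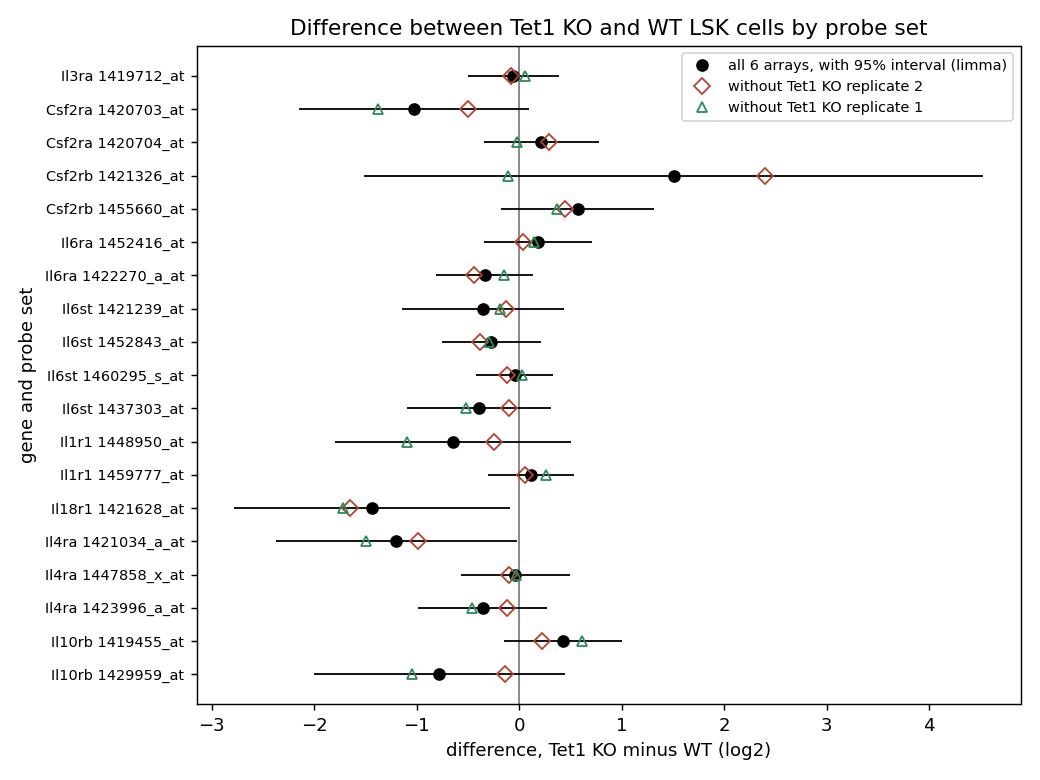
Difference between Tet1 KO and WT (x axis, log2) for each receptor probe set (y axis), as filled points with 95% intervals from limma over all 6 arrays, and as open symbols without Tet1 KO replicate 2 or replicate 1. The intervals of Il18r1 and of the brightest Il4ra probe set end just below 0 before adjustment, and the Csf2rb value of 1.51 is -0.11 without Tet1 KO replicate 1.

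Of the 6 genes with more than 1 probe set above the bacterial control level, Csf2rb, Il6st and Il4ra had the same sign at all of these probe sets. Csf2ra, Il6ra and Il10rb had both signs. The spread within groups was larger among Tet1 KO arrays than among WT arrays at 15 of the 19 probe sets, against 71.9% of all probe sets. The median SD of the 19 was 0.42 in Tet1 KO and 0.23 in WT. Tet1 KO replicate 2 was the lowest array at 8 of the 19, all 8 above the bacterial control level, and was the lowest at 24.6% of all probe sets and at 33.9% of those above that level. The part of that array in the single differences is given above by the values without it. Over the 19, the median of -0.27 became -0.12 with that array left out, and it moved about as far, to -0.149 and -0.15, when Tet1 KO replicate 1 or 3 was left out instead. The 13 lower and 6 higher became 10 lower and 9 higher without WT replicate 3.

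**Figure D3:**
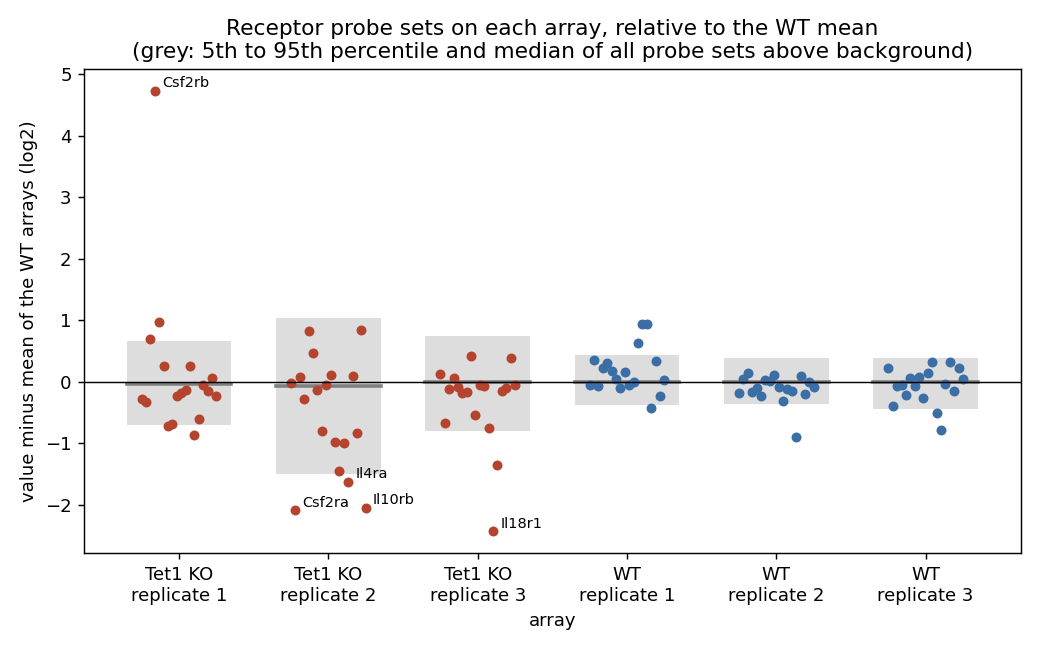
Value on each array minus the mean of the WT arrays (y axis, log2) for the 18 receptor probe sets above the bacterial control level, as points, over the median and the 5th to 95th percentile of all probe sets above that level, in grey. Tet1 KO replicate 2 has the widest grey band, and the Csf2rb point of Tet1 KO replicate 1 and the Il18r1 point of Tet1 KO replicate 3 lie outside theirs.

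The wider cytokine signalling genes, each at its brightest probe set, gave no call either. Of 93 measured genes in these lists, 56 were higher and 37 lower, with a median of 0.09 against 0.05 over all 18193 genes. Lower were 39.8% of the 93, against 43.5% of all genes, a share that also stands beside the counts of single lists below. In limma 0 passed adjustment over all probe sets, 2 had an unadjusted p under 0.05, where the share over all genes was 6.73%, and 14 had groups without overlap, where it was 17.1%. The 2 were Il1rl2, given above, and Jak1, a kinase bound to gp130 and to the interleukin 4 receptor. Jak1 read 8.91 ± 0.19 in Tet1 KO and 9.33 ± 0.12 in WT (SD, n = 3 each), a difference of -0.42 (SE 0.17, limma adjusted p = 0.686). Jak2, the kinase of the shared beta chain receptors, gave -0.66 (SE 0.44), and -0.14 without Tet1 KO replicate 2. Jak3, the kinase of the common gamma chain, gave -0.40 (SE 0.37), -0.78 without Tet1 KO replicate 2 and -0.08 when replicate 3 was left out. Of 16 measured kinases and adaptors, 5 were higher and 11 lower.

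Partner subunits gave 14 higher and 8 lower of 22, of which 11 read above the bacterial control level. Il7r, the interleukin 7 receptor of lymphoid progenitors, gave 0.19 (SE 0.35), Il10ra, the partner of Il10rb, gave 0.23 (SE 0.25), and Il1rap, the partner of Il1r1, gave 0.10 (SE 0.14). Il5ra and Il2rb, chains for interleukin 5 and for interleukins 2 and 15, read below the bacterial control level, with 0.09 (SE 0.13) and -0.12 (SE 0.17). Of 18 ligands, 15 were higher and 3 lower, but only 5 read above the bacterial control level, so most of these signs lie in the background range. Il18, the ligand of Il18r1, is named here after its values were seen. It read 6.28 ± 0.65 in Tet1 KO and 7.03 ± 0.14 in WT (SD, n = 3 each), a difference of -0.75 (SE 0.32, limma adjusted p = 0.686) without overlap between the groups, and of -0.39 without Tet1 KO replicate 2.

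Further downstream, of the 6 measured STAT factors, 3 were higher and 3 lower. Stat5b, which carries signals of the shared beta chain, gave -0.88 (SE 0.45), and -0.34 without Tet1 KO replicate 2. Its close relative Stat5a gave 0.21 (SE 0.20), and 0.05 without Tet1 KO replicate 1. Stat3, the main factor downstream of gp130, gave -0.28 (SE 0.17), and -0.15 without Tet1 KO replicate 2. Negative regulators gave 10 higher and 8 lower of 18. Cish and Socs3, feedback inhibitors that cytokine signals induce, gave 0.08 (SE 0.37) and -0.04 (SE 0.21). Of 17 transcripts known to be induced by cytokine signalling, 11 were higher and 6 lower, with 0 at an unadjusted limma p under 0.05 and 0 after adjustment.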

How the data were processed

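The authors deposited a table of log2 intensities with 45101 probe sets, 64 of them controls, on each array. That the scale is log2 follows from the range of 1.50 to 14.6; background correction, normalization and summarization are not given in the sources used here. Per the labels' protocols, cDNA was made from 125 ng of total RNA with whole-transcript kits, whereas probes carry the names of a 3′ array. Values were used as deposited, and no dim probe set was removed.

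Genes were named from the platform annotation, by which 34945 of the 45037 tested probe sets had 1 symbol, 932 several and 9160 none listed. Tet1 KO was compared with WT in limma 3.58.1 (R 4.3.3) with lmFit and eBayes, genotype as the only term, two-sided, over all 45037 probe sets, with Benjamini-Hochberg adjustment at 0.05. Errors are SDs or the fit's standard errors. An exact permutation test of 3 against 3 samples cannot go below 0.1. For wider lists the brightest probe set stood for its gene. All 10 members were named, with every probe set. List genes were named where fixed by name or at an unadjusted limma p under 0.05. Exceptions were Il1r2 and Il1rl1, named as neighbours by gene order, and Il18 and the cell type markers, named after their values were seen. The members and lists were chosen with earlier results of these data known.

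Replicate numbers are shared by the groups, but the deviations of same-numbered arrays correlated at 0.013, -0.0063 and 0.00054, so the main fit did not pair them. Xist, however, was low on replicate 3 of both groups, and the labels do not say whether the numbers mark a shared factor. Alternatives were other normalizations, filters, gene summaries, variance models, weights per array, a replicate block and omission of each array; a term for low Xist and a second definition of the bacterial control level were added after seeing the data. The 3 arrays per group limit the precision.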

Additional observations from a re-analysis of the deposited data

How the results depend on the processing

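In every setting 0 receptor probe sets passed adjustment in limma, as did 0 wider list genes under the settings run for them (quantile normalization, cyclic loess, the replicate block, omission of each array and the Xist term). Over all probe sets the count was 0 except with an intensity trend, with or without robust estimation, where 1 probe set passed, 1450192_at, for which no gene is listed, at adjusted p = 0.0476 and 0.0449. The 3065 probe sets at an unadjusted p under 0.05 became 1736 among those above the bacterial control level (1713 with the level taken as the mean of each array's own brightest control, 4.39, tried after seeing the data), 1311 with 1 probe set per gene and 1446 with probe sets averaged by gene, where fewer features were tested, and 1558 to 4627 with 1 array left out, the highest without Tet1 KO replicate 1. The 2 receptor probe sets at that level became 1 with quantile normalization and with cyclic loess, both times Il18r1. It stayed at 2 with array weights and with the Xist term, but there Il4ra was not among them (unadjusted limma p of 0.132 and 0.0666); Il6ra at 1422270_a_at stood beside Il18r1 with the weights and Csf2rb at 1455660_at with the Xist term. It was 0 (without WT replicate 1) to 5 (without Tet1 KO replicate 1) with 1 array left out. The 2 wider list genes became 1 with quantile normalization, with the replicate block and with the Xist term. They became 3 with cyclic loess, and 0 to 11 with 1 array left out. The replicate block, which rests on no pairing given in the labels, gave 3 receptor probe sets and 0 adjusted calls. The unadjusted limma p there was 0.00249 for Il18r1, 0.00358 for Il4ra at 1421034_a_at and 0.0481 for Csf2ra at 1420703_at, each with an adjusted p of 0.758. With the Xist term Il18r1 had an unadjusted limma p of 0.00419 and an adjusted p of 0.735.

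Of 338 single differences recomputed, 324 kept their sign and 14, at 8 probe sets, turned, and the cause was not tested. An average over a gene is counted here under the gene's brightest probe set. Filters, 1 probe set per gene, the intensity trend, the replicate block and the Xist term leave a difference unchanged by construction. Their signs could not turn, so the 324 overstate how far the signs were tried. Quantile normalization and cyclic loess gave 0.051 and 0.065 for Il6st at 1460295_s_at, and loess gave -0.035 for Il1r1 at 1459777_at. Averaged probe sets gave -0.079 for Il6ra and -0.18 for Il10rb, set against 0.18 and 0.43 at the brightest probe set of each. These averages take in the second probe set of each gene, which had the opposite sign (-0.34 and -0.78). Neither brightest probe set turned by itself. Leaving out 1 array turned Csf2rb at 1421326_at (-0.11 to 2.40), Csf2ra at 1420704_at (-0.018 to 0.38), Il3ra (-0.15 to 0.058), Il4ra at 1447858_x_at (-0.25 to 0.13) and Il6st at 1460295_s_at (-0.12 to 0.027).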
